A study of Mus musculus with 24 samples.

Results

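The variable segments of the T cell receptor alpha chain, apart from those of the invariant receptor, were described in RNA of invariant natural killer T (iNKT) cells sorted from mouse mesenteric lymph nodes. The members were taken by name: every gene of the count table whose symbol starts with Trav, except Trav11 and Trav11d, with at least 1 count in any of the 24 libraries. This gave 115 of 128 Trav genes, among 55335 genes in the table. Trav11d and 11 Trav pseudogenes had no count in any library. The rule used names and detection and not level, though it was set with earlier results of these data known.

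All libraries came from C57BL/6J mice whose dams had been given a fecal transplant (FT). The donors were wild-type mice (WT FT) or mice lacking CD1d (KO FT), the molecule that presents lipids to iNKT cells. The mice were gavaged with 2 µg alpha-galactosylceramide (aGC), the glycolipid that activates iNKT cells through CD1d, in 200 µL PBS, or with PBS alone, and the cells were sorted 24 h later. Females and males were kept apart, which made 8 groups of 3 libraries: WT FT or KO FT, PBS or aGC, female or male. The dams' donors are the only genotype difference named, and the mice sorted are not said to differ in genotype. Neither the sort gate nor the mice behind each library were described, so the spread that p-values measure is that among these libraries and could be technical.

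Libraries held 9764931 to 37016768 estimated counts, of which the members took 1250 to 7730. Levels are given in CPM, counts relative to the library's total scaled to a common size, adjusted by edgeR's TMM factors, which correct for differences in RNA composition. At these depths 3 counts in 1 library, the upper limit behind a count of 0, came to 0.0801 to 0.302 CPM, which covers counting error only. Of the markers of the labelled cell type, Trav11 and Zbtb16, the gene of the iNKT cell transcription factor PLZF, were present in all 8 groups. Their group means were 336 to 848 and 34.1 to 80.2 CPM, and their presence does not measure the purity of the sort.

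Most T cells build the alpha chain by joining 1 of many Trav segments to 1 of many Traj segments, so a population of conventional T cells carries a wide mix of both. Mouse iNKT cells share a single alpha chain, Trav11 joined to Traj18, paired with beta chains from a small set of Trbv segments. A T cell can rearrange the alpha locus on both of its chromosomes, so RNA of another Trav segment marks conventional T cells but can also come from the second allele of an iNKT cell. The 2 sources were not told apart here, and in bulk RNA fewer cells of a type and less RNA per cell cannot be told apart.

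The 115 members lie on chromosome 14 of GRCm38 with Trav11, all on the plus strand, within 52427928 to 53977678 (GENCODE M21). Traj18 follows at 54200777 to 54200842. The mouse locus repeats large blocks, and copies carry a d or an n after the family number. The germline ends below show the excluded invariant segment, a pseudogene copy of it that is a member, and abundant members. They also show Trav1 at the far end of the locus and members near the Traj end that are described by position further on. Each run holds the last 60 bases of the transcript in GENCODE M21, 5′ to 3′ on the plus strand, with capitals from the codon of the conserved cysteine to the end, the part that enters the antigen-binding loop.
Trav11, chr14:53519800-53519859: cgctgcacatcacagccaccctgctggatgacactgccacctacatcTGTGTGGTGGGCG
Trav11n, chr14:53135619-53135678: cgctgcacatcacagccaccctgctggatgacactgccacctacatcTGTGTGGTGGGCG
Trav7-4, chr14:53461679-53461738: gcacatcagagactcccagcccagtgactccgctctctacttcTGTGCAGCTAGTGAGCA
Trav14-1, chr14:53554499-53554558: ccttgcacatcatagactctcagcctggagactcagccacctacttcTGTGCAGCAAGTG
Trav14d-1, chr14:52856107-52856166: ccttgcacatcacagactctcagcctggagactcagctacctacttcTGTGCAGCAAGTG
Trav12n-3, chr14:53241185-53241244: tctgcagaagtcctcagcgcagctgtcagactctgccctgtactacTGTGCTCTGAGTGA
Trav3d-3, chr14:52972979-52973038: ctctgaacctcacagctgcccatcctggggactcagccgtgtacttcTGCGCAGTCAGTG
Trav1, chr14:52428817-52428876: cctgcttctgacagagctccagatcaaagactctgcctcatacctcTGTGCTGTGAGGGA
Trav16, chr14:53743646-53743705: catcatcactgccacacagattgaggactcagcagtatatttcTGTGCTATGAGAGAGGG
Trav17, chr14:53807056-53807115: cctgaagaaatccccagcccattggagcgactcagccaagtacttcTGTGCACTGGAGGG
Trav21-dv12, chr14:53876693-53876752: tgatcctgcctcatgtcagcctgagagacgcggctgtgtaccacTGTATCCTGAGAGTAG

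The copies limit how single segments can be read. Of the 115 members, 34 have no stretch of 31 bases (the word length kallisto matches by default) that is absent from all other Trav genes, and 28 have more than 50% such own stretches. Members form 15 pairs with identical transcripts, and in all 15 both partners carry equal counts in every library. The splitting of reads was less even for near copies. Trav7d-2 and Trav7-2, with 0.3% and 0.0% own stretches, took turns: in KO FT females after PBS the 3 libraries held 3.47, 0.0664 and 3.65 CPM of Trav7d-2 and 0, 4.31 and 0 CPM of Trav7-2. Such pairs are therefore given as sums. Trav11n shares 39.0% of its stretches with Trav11, and Trav11d shares all of its own, so the division between Trav11 and Trav11d in the table cannot be read as a biological one.

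Detection was broad in every group. Of the 115 members 106 are annotated as functional variable genes and 9 as pseudogenes, and the pseudogenes held 1.73% of the members' counts. A library had counts for 90 to 109 members, and 65 members had a count in all 24 libraries. Summed over all libraries, single members ranged from 2 counts to the 4442 of Trav7-4, and 5 members had fewer than 10. No member dominated: the most abundant one held 3.63 to 7.85% of the summed members as a group mean. The effective number of segments, the exponential of the Shannon entropy of their shares, was 64.6 to 75.5. Both measures take copies as separate segments, though copies share reads. With copies added up into 60 groups the effective number was 32.9 to 36.5 as group means. Trav7-4 summed with Trav7d-4 and Trav7n-4 held 10.6 of the members' 98.9 CPM in WT FT aGC males.

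The summed level of the 115 members was higher in males than in females after PBS and higher in females than in males after aGC, in both FTs. In WT FT mice after PBS the 3 female libraries held 126, 119 and 122 CPM and the 3 male libraries 355, 348 and 346 CPM. After aGC the WT FT females held 281, 277 and 280 CPM and the WT FT males 96.3, 101 and 99.8 CPM. So in WT FT mice the PBS males and the aGC females were the high groups, with no overlap with the other groups.

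KO FT mice had the same order within a treatment over a narrower range. After PBS the females held 147, 153 and 161 CPM and the males 239, 246 and 235 CPM. After aGC the females held 200, 189 and 199 CPM and the males 99.5, 92.1 and 102 CPM. Ranked by mean, the 8 groups ran from WT FT PBS males (349 ± 4.72 CPM, mean ± SD, n = 3) through WT FT aGC females (279 ± 2.26), KO FT PBS males (240 ± 5.60), KO FT aGC females (196 ± 6.04), KO FT PBS females (154 ± 7.15) and WT FT PBS females (122 ± 3.74) to the aGC males of WT FT (98.9 ± 2.30) and KO FT (97.9 ± 5.24). Only the last pair overlapped in this order.

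**Figure D1:**
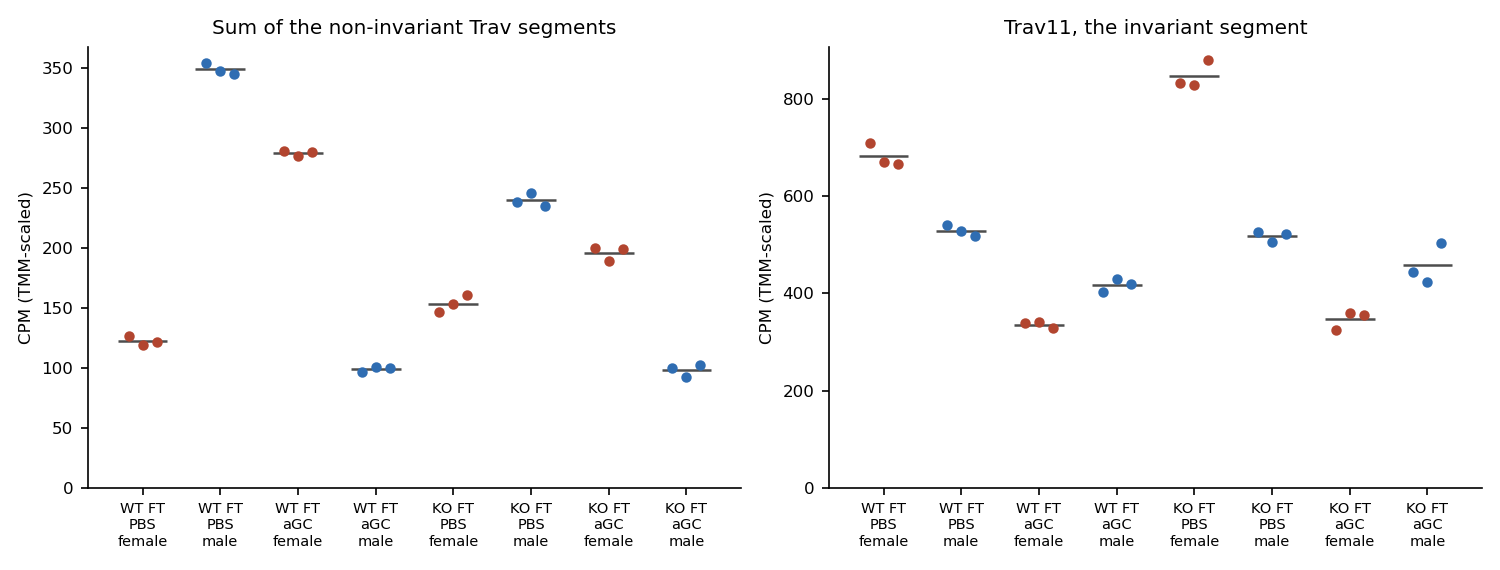
Summed CPM (TMM-scaled) of the 115 members (left) and CPM of Trav11 (right) in the 8 groups; each dot is a library, each line the group mean, red female and blue male. The summed members are highest in WT FT males after PBS, at 346 to 355 CPM, while Trav11 is highest in KO FT females after PBS, with a mean of 848 CPM.

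As ratios of group means, the sum after aGC was 2.28-fold that after PBS in WT FT females and 1.28-fold in KO FT females. In males it was 3.53-fold lower after aGC in WT FT and 2.45-fold lower in KO FT. Trav11 fell after aGC in each of the 4 comparisons (edgeR, largest adjusted p = 0.00669), against the members in females and with them in males. For PBS and aGC its means were 683 and 336 CPM in females and 529 and 418 CPM in males of WT FT, and 848 and 346 CPM in females and 518 and 458 CPM in males of KO FT. The members' share of all Trav counts therefore depended on both.

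That share was 15.2% ± 0.211 in WT FT females after PBS and 45.4% ± 0.590 after aGC, and 39.8% ± 0.189 and 19.1% ± 0.149 in the males. In KO FT mice it was 15.3% ± 0.32 and 36.2% ± 1.80 in females and 31.6% ± 0.939 and 17.6% ± 0.743 in males. On this scale the aGC females were the highest group, above the PBS males, the reverse of their CPM order, in both FTs. The change in KO FT females was larger as a share of Trav counts (log2 1.24) than in CPM (log2 0.35), and that in WT FT males smaller (log2 -1.05 against -1.82). Per 1000 CPM of Trac, the constant segment that every alpha chain carries, the members stood at 46.1 ± 0.561, 124 ± 3.62, 135 ± 1.63 and 48.4 ± 1.76 in WT FT PBS females, PBS males, aGC females and aGC males. The KO FT values in that order were 46.8 ± 1.71, 101 ± 3.58, 107 ± 9.91 and 49.0 ± 4.57. Trav11 on that scale stood at 257, 188, 162 and 204 in WT FT, so it was not lower after aGC in males. In KO FT PBS females, PBS males and aGC females it stood at 258, 218 and 188, and the aGC male libraries held 238, 204 and 245.

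The other receptor segments that the invariant cells do not use were set beside the members. Trbv segments other than Trbv1, Trbv13-1, Trbv13-2, Trbv13-3 and Trbv29 (the genes of Vbeta2, Vbeta8 and Vbeta7, common in iNKT cells) made up 18.2% of Trbv counts in WT FT PBS females, 33.9% in PBS males, 32.1% in aGC females and 17.7% in aGC males. In KO FT mice these shares were 17.7, 25.6, 30.1 and 17.98%. Traj segments other than Traj18 made up 11.6, 31.2, 36.2 and 16.2% of Traj counts in WT FT and 12.8, 23.6, 27.6 and 13.7% in KO FT, in the same order of groups. In both FTs, then, PBS males and aGC females were the high groups for all 3 kinds of segment.

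**Figure D2:**
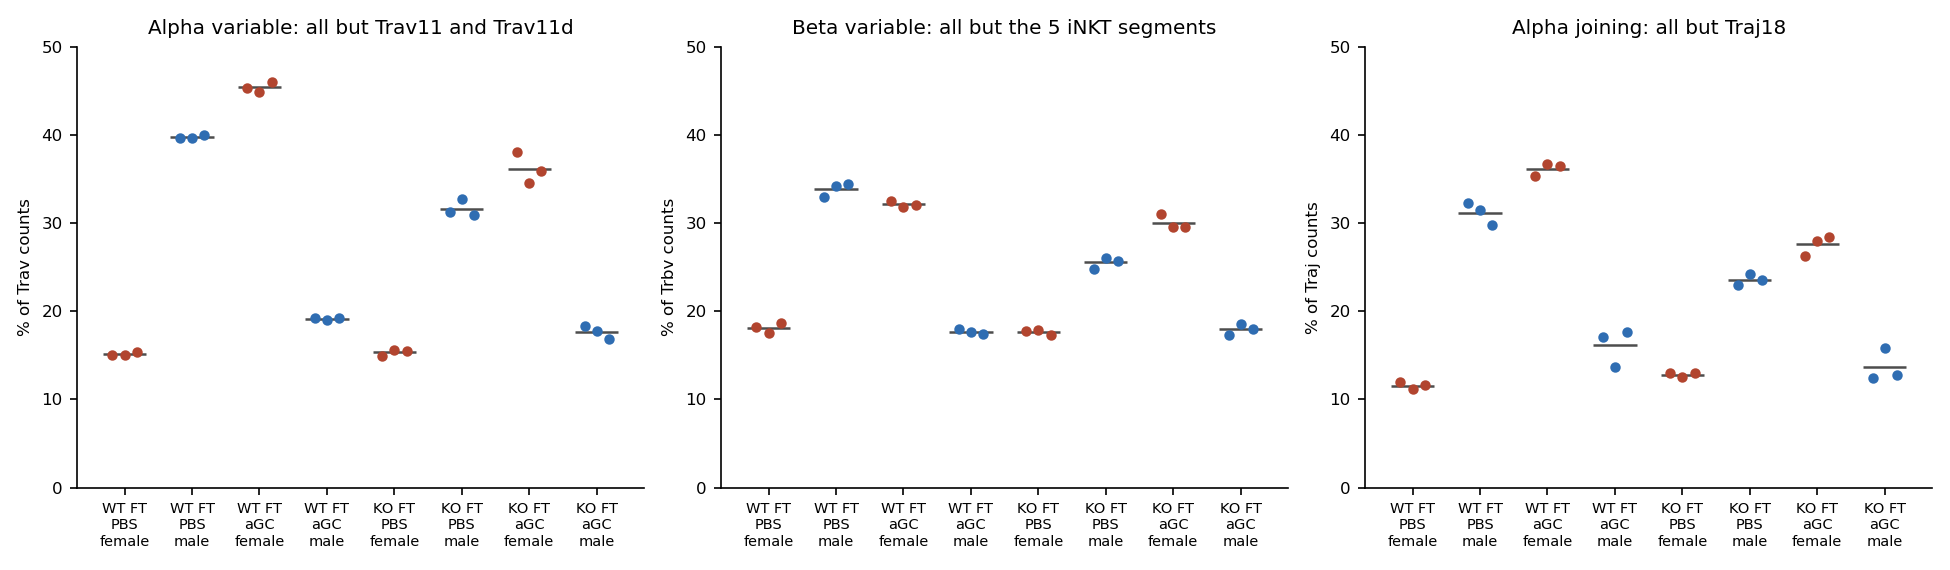
Percent of Trav counts held by the 115 members (left), of Trbv counts by segments outside the iNKT set (middle) and of Traj counts by segments other than Traj18 (right) in the 8 groups; each dot is a library and each line the group mean. PBS males and aGC females are the high groups in each panel, with group means of 15.2 to 45.4% for Trav.

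Each of these lists was also read gene by gene in the fit. Of 30 other Trbv genes 18 passed the filter on low counts. For aGC in WT FT, 11 of the 18 were higher and 3 lower in females, and 0 higher and 17 lower in males. In KO FT 7 were higher and 2 lower in females, and 1 higher and 14 lower in males. Of 59 other Traj genes 22 passed the filter. After aGC in WT FT, 10 of the 22 rose and 0 fell in females, and 0 rose and 19 fell in males. In KO FT 3 rose and 1 fell in females, and 0 rose and 14 fell in males. Of all tested genes 28.6% rose and 29.8% fell with aGC in females and 31.7% and 34.9% in males of WT FT. The KO FT shares were 27.7% and 28.3% for females and 26.8% and 26.7% for males, so the Traj counts of KO FT females lie below that background.

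Several markers of conventional T cells were high in the same groups. Cd8a, a co-receptor chain of conventional CD8 T cells, stood at 6.30 ± 0.720 CPM in WT FT PBS females, 287 ± 5.42 in PBS males, 245 ± 6.05 in aGC females and 6.21 ± 0.682 in aGC males. Its KO FT values were 5.20 ± 0.424, 136 ± 4.60, 189 ± 9.31 and 7.59 ± 0.469. Its partner Cd8b1 had means of 9.83, 573, 390 and 12.3 CPM in WT FT and 11.2, 258, 315 and 6.68 in KO FT. Between the sexes Cd8a thus differed 24.9-fold to 45.5-fold, where the summed members differed 1.56-fold to 2.85-fold.

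Of the genes fixed as naive T cell markers, the 4 with the highest mean level are given. Ccr7, which guides naive T cells into lymph nodes, had means of 209, 607, 584 and 293 CPM in WT FT and 170, 504, 395 and 225 in KO FT, with groups ordered as above. Tcf7, the gene of the factor TCF-1, had means of 480, 703, 501 and 297 CPM in WT FT and 431, 751, 560 and 376 in KO FT. Satb1 ranged from 553 to 746 CPM, and Il7r, the gene of the IL-7 receptor alpha chain, from 128 to 591 CPM. The first pair followed the order of the summed members between the sexes within each treatment, whereas Il7r was lower in WT FT PBS males (413 CPM) than in PBS females (545 CPM). Foxp3, the gene of the regulatory T cell factor, had means of 1.18, 17.8, 6.53 and 0.927 CPM in WT FT, and 0, 2.75, 6.94 and 1.08 in KO FT. Cd4 ranged from 100.3 to 215 CPM as group means, and the list of 5 genes that holds both, with Ctla4, Ikzf2 and Zbtb7b, summed to 170, 217, 239 and 145 CPM in WT FT and 149, 257, 247 and 214 in KO FT. That sum is mostly Cd4, and the list was split between females and males, with 2 genes higher and 3 lower in WT FT PBS, 2 and 2 in WT FT aGC, 1 and 2 in KO FT PBS and 3 and 2 in KO FT aGC. Ikzf2, the gene of the factor Helios, ran against the members at 13.5, 8.52, 6.29 and 14.3 CPM in WT FT and 14.5, 7.45, 7.01 and 15.3 in KO FT. Zbtb7b, the gene of the CD4 lineage factor ThPOK, stood at 31.1, 23.4, 14.8 and 20.7 CPM in WT FT and 26.1, 23.9, 19.4 and 24.3 in KO FT. Dntt, which adds bases at receptor joints during recombination, was at 0 in the PBS females of both FTs and in WT FT aGC males, and at 0.992 to 2.74 CPM as means of the PBS males and aGC females.

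Markers of other cell types were mixed, and some shared that order. Summed B cell markers (8 genes, nearly all of it Ighm) stood at 1011, 1061, 711 and 477 CPM in WT FT and 1050, 984, 630 and 550 in KO FT, so they had the members' order between the sexes in both treatments of WT FT, and only after aGC in KO FT. Cd79a, which B cells need for their receptor, behaved likewise in its means, at 2.46, 3.70, 1.46 and 1.16 CPM in WT FT and 2.16, 1.25, 1.19 and 0.694 in KO FT. After aGC its female and male libraries overlapped in both FTs. They held 1.0, 1.73 and 1.66 against 1.26, 1.27 and 0.955 CPM in WT FT, and 1.61, 0.392 and 1.56 against 0.736, 0.368 and 0.978 in KO FT. Summed gamma delta T cell genes (9 genes) ran the other way, at 195, 101, 65.5 and 77.4 CPM in WT FT and 169, 121, 73.9 and 122 in KO FT. Trdc, their defining constant segment, had the members' order in its means, which are given below beside the dv segments. The 6 myeloid genes summed to 6.31 to 66.0 CPM, highest in WT FT PBS females. The MAIT genes Trav1 and Traj33, of which Trav1 is a member, summed to 1.08, 2.54, 2.57 and 2.24 CPM in WT FT and 1.78, 0.945, 1.67 and 0.868 in KO FT. The part of any of these cells in the members' levels was not tested.

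More than 60 single segments moved with the sum in each of the WT FT comparisons of treatment or sex and with aGC in KO FT males, and 24 to 44 in the other KO FT ones. Of the 115 members 104 passed the filter on low counts and were tested with edgeR's quasi-likelihood test on all 15953 genes, with Benjamini-Hochberg adjustment over all of them and a threshold of 0.05. The other 11 members (Trav4-1, Trav6-1, Trav4d-2, Trav6d-4, Trav12d-3, Trav15d-3, Trav13-3, Trav12-4, Trav18, Trav20 and Trav23) enter the sums only. Because identical copies repeat the same counts, the counts of members below are not counts of independent segments, and with copies added up 53 rows were tested. In WT FT females after aGC 71 of 104 members rose and 2 fell, where 28.6% of all tested genes rose and 29.8% fell (58.4% together). In WT FT males 1 rose and 78 fell, against 31.7% and 34.9% of all genes (66.6% together). With copies added up 41 of the 53 rows passed in females and 45 in males.

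The median log2 change of the tested members was 1.18 in females and -1.89 in males of WT FT, beside medians over all genes of -0.05 and -0.09. Taking segments with a group at 0 at their bound, the male median was -1.87. Of the 71 risers in females 59 fell in males, 83.1% of the female risers and 75.6% of the male fallers. Among all genes 718 had that pair of calls, of 4567 female risers and 5568 male fallers (4.5% of all tested genes). With 71 of 104 tested members in one list and 78 in the other, a large overlap was bound to occur. The opposite pair of calls was found for 0 members and 4.11% of all genes. The female and male comparisons share no library.

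In KO FT females the members were split, with 24 rising and 8 falling (27.7% and 28.3% of all genes, 56.0% together), a share of risers below the background, and a median log2 change of 0.11. KO FT males had 3 members rising and 64 falling (26.8% and 26.7% of all genes, 53.5% together), with a median of -1.18. Of the 24 risers in KO FT females 20 fell in KO FT males, 83.3% of the former and 31.2% of the latter. Among all genes 807 had that pair of calls, of 4419 female risers and 4257 male fallers (5.06% of all tested genes). The opposite calls were found for 1 member and 4.09% of all genes. Across FTs, 21 members rose in the females of both, 29.6% of the WT FT risers and 87.5% of the KO FT ones. In males 56 fell in both, 71.8% and 87.5% of the 2 lists. The 2 overlaps held 15.9% and 18.9% of all tested genes, a different base from these shares of lists. Among all genes 2542 rose in the females of both FTs, of 4567 WT FT and 4419 KO FT risers. In males 3008 genes fell in both, of 5568 WT FT and 4257 KO FT fallers. Against that, the members' share was lower for the WT FT female risers and higher for the other lists. Rises shared by the males of both FTs held 19.9% of all tested genes, and 1 member.

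The sex difference of the aGC response was tested as an interaction. It passed in the direction of a more positive female change for 86 members in WT FT and for 53 in KO FT, and in the other direction for 1 and 6, where 23.5% and 21.4% of all genes passed in the first direction and 24.2% and 25.3% in the second (47.7% and 46.7% together). All 53 KO FT members were among the 86 of WT FT, 100% of the one list and 61.6% of the other. Among all genes 1371 passed in this direction in both, of 3408 in KO FT and 3753 in WT FT (8.59% of all tested genes). Directly between the sexes after PBS, 0 members were higher and 72 lower in WT FT females (24.5% and 22.6% of all genes, 47.1% together), and 10 and 44 in KO FT females (25.1% and 24.2%, 49.3% together). After aGC 69 were higher and 2 lower in WT FT females (22.5% and 20.7%, 43.3% together), and 41 and 3 in KO FT females (11.1% and 13.2%, 24.3% together).

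Trav7-4 (ENSMUSG00000094766.3, chromosome 14, 53461099 to 53461738) was the most abundant member, with 11.4% own stretches, at 23.3 CPM per kb of exon against 10.3 to 16.4 for the other 9 of the top 10. In WT FT after PBS its 3 female libraries held 6.83, 5.23 and 6.09 CPM and its male libraries 23.8, 23.2 and 22.8. After aGC the females held 11.9, 13.9 and 14.5 CPM and the males 7.68, 7.80 and 7.79. The 4 groups did not overlap, and the log2 change with aGC was 1.14 ± 0.15 (SE) in females (edgeR, adjusted p = 4.25e-07) and -1.58 ± 0.14 in males (adjusted p = 1.17e-09). Summed with its copies Trav7d-4 and Trav7n-4, the mean was 2.22-fold higher after aGC in females and 3.11-fold lower in males. KO FT libraries held 8.05, 6.70 and 7.43 CPM (PBS females), 8.37, 9.43 and 6.93 (PBS males), 15.7, 13.7 and 13.7 (aGC females) and 3.41, 2.80 and 4.43 (aGC males). There the sexes overlapped after PBS, unlike in WT FT.

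Trav14-1 (ENSMUSG00000076840.4, 53554022 to 53554558) has 67.5% own stretches and fell more than the sum in WT FT males. Its WT FT libraries held 2.78, 2.30 and 2.30 CPM (PBS females), 11.9, 10.6 and 11.9 (PBS males), 6.33, 6.64 and 6.97 (aGC females) and 0.517, 0.733 and 1.10 (aGC males). The male fall was 14.5-fold (log2 -3.86 ± 0.25, edgeR, adjusted p = 2.64e-12), and the female rise 2.67-fold (log2 1.42 ± 0.21, adjusted p = 4.35e-06). In KO FT the PBS males held 2.71, 4.40 and 2.67 CPM, overlapping the PBS females at 2.63, 2.99 and 2.55, while the aGC females held 5.94, 6.44 and 7.88 and the aGC males 2.01, 1.40 and 1.40. The response differed between the sexes in both FTs (interaction log2 5.28 ± 0.33 in WT FT and 2.39 ± 0.32 in KO FT, adjusted p = 9.46e-12 and 2.14e-06).

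Trav3-3 (53665929 to 53666506) had group means of 1.71 ± 0.317, 10.4 ± 1.08, 7.15 ± 0.299 and 2.23 ± 0.266 CPM in WT FT, again for PBS females, PBS males, aGC females and aGC males, and 1.81 ± 0.605, 3.84 ± 0.876, 5.36 ± 0.709 and 1.96 ± 0.270 in KO FT. It rose 4.10-fold with aGC in WT FT females and 2.92-fold in KO FT females (edgeR, adjusted p = 4.03e-08 and 4.11e-06). Trav13-1 (53545014 to 53545525) had means of 1.99, 7.33, 4.34 and 2.15 CPM in WT FT and 1.81, 5.04, 3.89 and 1.88 in KO FT. It was lower in KO FT than WT FT PBS males (log2 -0.54, adjusted p = 0.0299), and its other 3 comparisons between FTs did not pass. Trav14-2 rose 6.88-fold with aGC in WT FT females, from libraries at 0.907, 0.919 and 0.271 CPM to 4.51, 5.91 and 4.81 (adjusted p = 3.76e-07), whereas its change in KO FT females was 1.21-fold (adjusted p = 0.524). Trav9n-4, with 5.7% own stretches, fell 8.27-fold with aGC in KO FT males, from 6.20, 5.38 and 6.13 to 0.937, 0.884 and 0.373 CPM (adjusted p = 8.14e-05). Summed with its near copy Trav9d-4, it went from 8.13, 5.82 and 7.29 to 1.47, 1.69 and 1.40 CPM, a 4.65-fold lower mean.

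The copies that cannot be separated moved the same way as sums. Trav12n-3 and Trav12d-3 together held 2.78, 3.73 and 3.18 CPM in WT FT PBS females, 15.1, 13.2 and 14.9 in PBS males, 10.8, 9.93 and 11.2 in aGC females and 1.26, 1.93 and 1.84 in aGC males, an 8.60-fold lower mean after aGC in males. Trav7-2 and Trav7d-2 together had means of 1.62, 7.75, 8.49 and 1.40 CPM in WT FT and 3.83, 7.03, 4.77 and 2.18 in KO FT. Trav14d-1 and Trav14n-1, which are identical, had summed means of 7.95, 18.3, 14.1 and 4.82 CPM in WT FT and 10.2, 13.5, 13 and 4.91 in KO FT. The identical pair Trav3d-3 and Trav3n-3 varied least, with 7.62, 16.6, 9.91 and 7.68 CPM in WT FT and 11.4, 13.1, 11.4 and 8.24 in KO FT. In WT FT females it rose 1.31-fold per copy with aGC (adjusted p = 0.0315), and in KO FT females its ratio was 0.993 (adjusted p = 0.964). Trav12-2, the last segment named by size, was 13.5-fold higher in WT FT aGC females (4.95, 6.41 and 7.22 CPM) than in aGC males (0.517, 0.533 and 0.294; adjusted p = 2.06e-09).

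**Figure D3:**
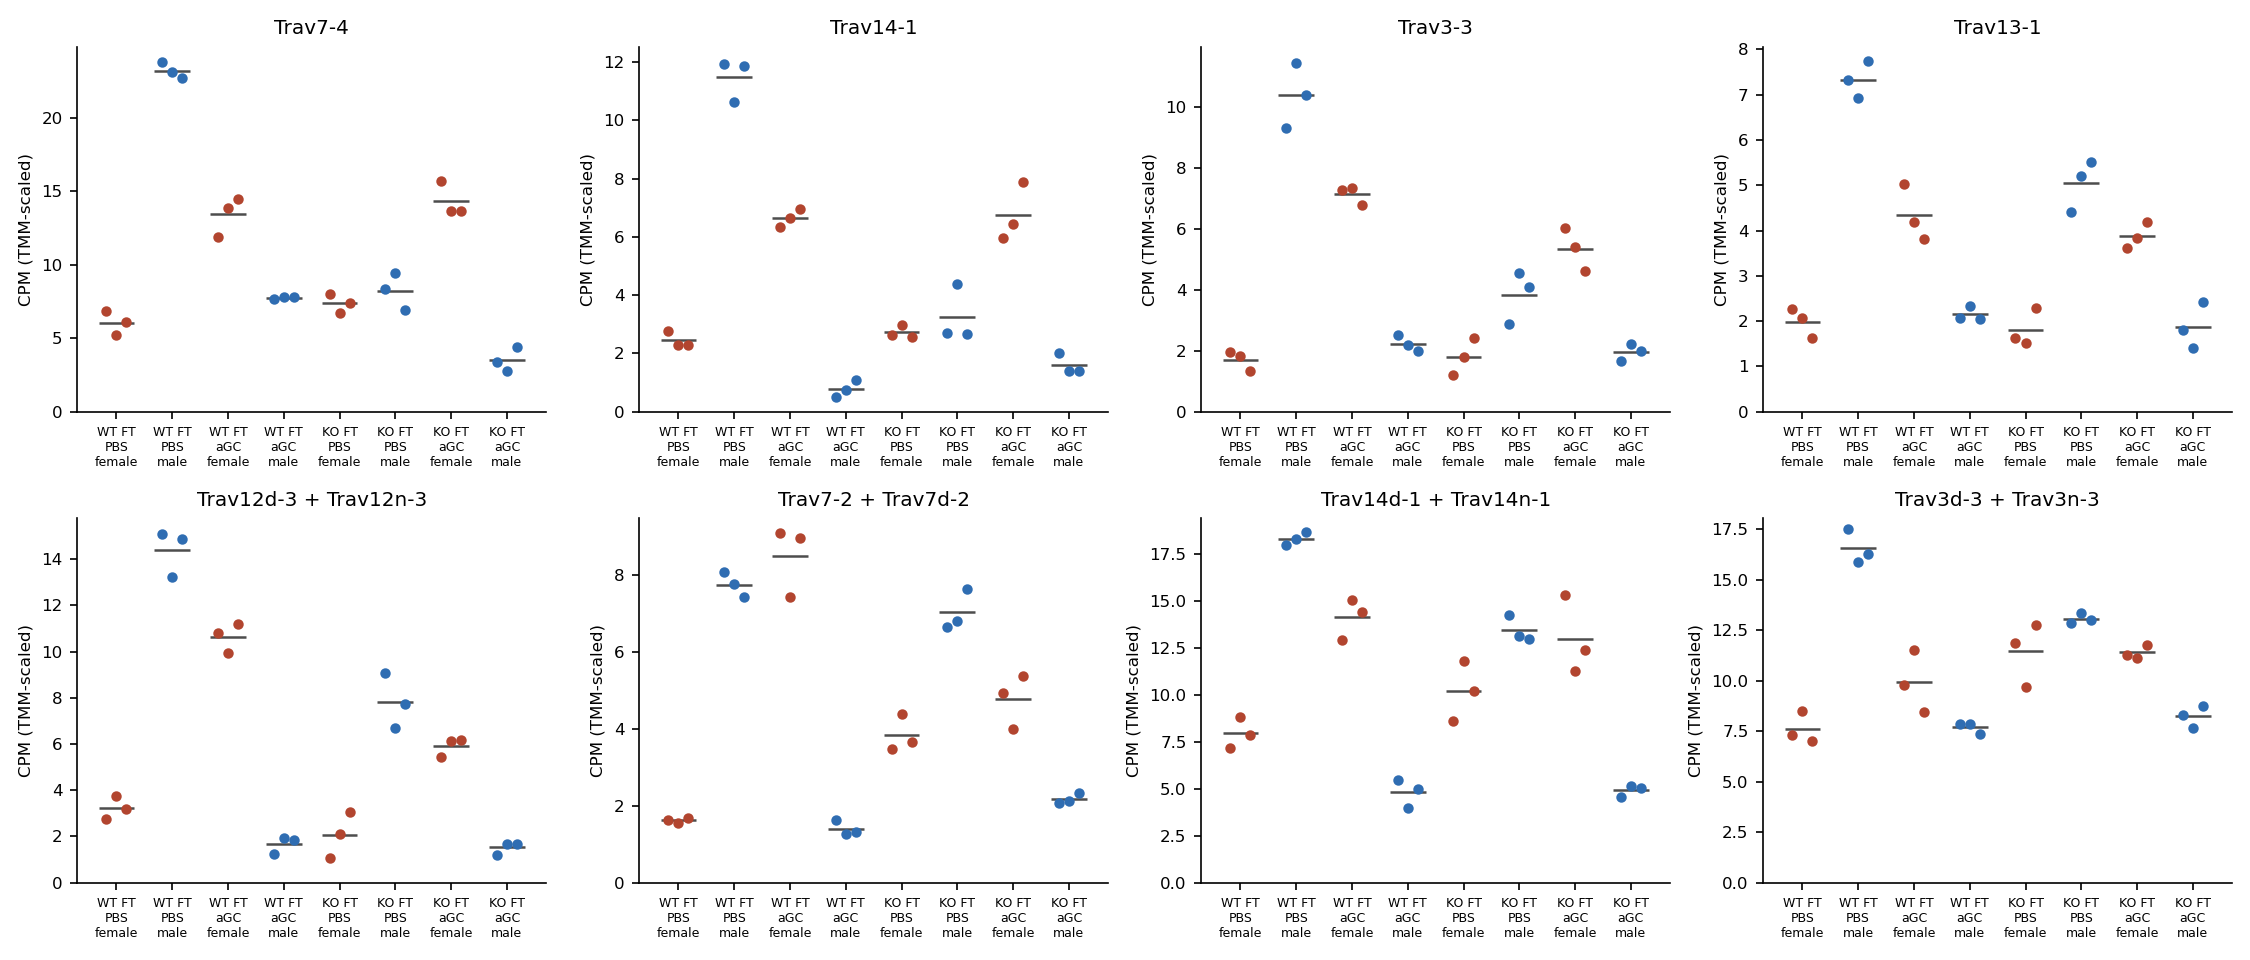
CPM of 4 single segments and of 4 sums of near-identical or identical copies in the 8 groups, 1 panel each; each dot is a library and each line the group mean. WT FT PBS males are the highest group for Trav7-4, Trav14-1, Trav3-3 and Trav13-1, while Trav3d-3 + Trav3n-3 spans only 7.62 to 16.6 CPM as group means.

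Between FTs the summed members differed by ratios of 1.46 or less. After PBS, KO FT males had 1.46-fold lower summed members than WT FT males (240 against 349 CPM) and 7 members higher and 37 lower (21.1% and 21.4% of all genes, 42.5% together). Females after aGC had 1.42-fold lower summed members in KO FT (196 against 279 CPM), with 2 higher and 38 lower (19% and 24.4% of all genes, 43.4% together). Trav7-4 and Trav14-1 showed the difference in PBS males, at 2.79-fold and 3.43-fold lower in KO FT (edgeR, adjusted p = 5.12e-08 and 6.56e-07). Trav7d-4, a near copy of Trav7-4 with 11.4% own stretches, was 3.87-fold lower there (edgeR, adjusted p = 0.002). Summed with Trav7-4 and Trav7n-4, it had a 3.27-fold lower mean. Trav12-3, Trav14-2 and Trav14n-3 were 2.19-fold, 2.74-fold and 2.03-fold lower in KO FT females after aGC (edgeR, adjusted p = 0.000753, 0.00127 and 0.0219).

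The sum after PBS was 1.26-fold higher in KO FT females (154 against 122 CPM), with 18 members higher and 2 lower (14.9% of all genes each way, 29.8% together). The share of Trav counts was 15.3% against 15.2%, a log2 ratio of 0.014. Leaving out WT FT PBS female replicate 2 took this count of 20 members to 12, and leaving out KO FT PBS female replicate 2 or 3 took it to 13 or 12. Trav3d-3 and Trav3n-3 were each 1.51-fold higher (adjusted p = 0.0043). Males after aGC had a ratio of 0.99 (97.9 against 98.9 CPM), with 14 members higher and 15 lower (24.2% and 22.4% of all genes, 46.5% together), or 17 and 12 when libraries were scaled by their totals alone, and 17 members in all without KO FT aGC male replicate 2. Among these Trav7-4 was 2.15-fold lower in KO FT (adjusted p = 5.25e-06) and Trav14-1 2.03-fold higher (adjusted p = 0.00443), in opposite directions where the ratio of the sums was near 1.

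The members fall into 22 families. Of these the 6 most abundant were Trav7 (13 members, 31.1 CPM as the mean over libraries), Trav14 (9 members, 29.0), Trav12 (10, 23.1), Trav6 (15, 19.3), Trav3 (5, 17.7) and Trav13 (12, 13.7). Each had a higher mean in PBS males than in PBS females and in aGC females than in aGC males, in both FTs. From the group with the highest sum (WT FT PBS males) to the lowest (KO FT aGC males), the shares that differed most were those of Trav14 (16.1% ± 0.365 against 12.3% ± 1.37), Trav7 (17.6% ± 0.0237 against 14.0% ± 1.29) and Trav3 (8.75% ± 0.207 against 11.7% ± 0.367). Composition was compared over the shares of the 60 copy groups, with copies added up. Between 2 libraries of one group the difference was 5.06 to 11.5% of the composition. Between 2 groups, each with its libraries pooled, it was 10.7% (WT FT against KO FT females after PBS) to 25.5% (WT FT females against males after aGC). Within groups, counts of copy groups varied 1.27 to 2.03 times as much as sampling noise gives (chi-square per degree of freedom).

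The 10 members with a dv name, which can also join the delta chain of gamma delta T cells, had the order of the sum between the sexes within each treatment. They summed to 9.41 ± 1.5, 28.3 ± 1.54, 19.98 ± 2.20 and 9.29 ± 0.796 CPM in WT FT, and to 11.9 ± 1.06, 18.1 ± 1.15, 12.5 ± 0.612 and 7.42 ± 0.704 in KO FT, for PBS females, PBS males, aGC females and aGC males. Trdc, the delta constant segment, had that order in its means too, at 2.38, 5.11, 2.32 and 1.75 CPM in WT FT and 1.58, 5.10, 5.04 and 0.993 in KO FT. In WT FT after aGC the sexes overlapped, with Trdc at 2.13, 2.84 and 1.99 CPM in females and 0.96, 2.0 and 2.28 in males. The part of gamma delta T cells in the dv members' levels was not tested.

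Trav1 and Trav11n did not follow the sum. Trav1 (ENSMUSG00000076758.6, 52427928 to 52428876), which mucosal-associated invariant T (MAIT) cells join to Traj33, has only own stretches. Its WT FT means were 0.823 ± 0.321, 1.90 ± 0.235, 1.96 ± 0.335 and 2.17 ± 0.352 CPM, and its KO FT means 1.59 ± 0.342, 0.585 ± 0.226, 1.17 ± 0.145 and 0.625 ± 0.238. With aGC it rose 2.45-fold in WT FT females (adjusted p = 0.00218), and the log2 change in WT FT males was 0.19 ± 0.32 (adjusted p = 0.613). After PBS it was 2.37-fold lower in females than in males in WT FT (adjusted p = 0.0039) and 2.56-fold higher in females in KO FT (adjusted p = 0.00264).

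Trav11n, the pseudogene copy of the invariant segment, had means of 1.92, 2.35, 1.73 and 2.73 CPM in WT FT and 3.24, 1.08, 1.27 and 1.71 in KO FT. In KO FT it fell 2.49-fold with aGC in females (edgeR, adjusted p = 0.00051) and was 3.03-fold higher in females than males after PBS (adjusted p = 9.58e-05). Trav11 was higher in females than males after PBS in KO FT as well, 1.64-fold (adjusted p = 2.95e-10). Which reads of Trav11n came from Trav11 was not tested.

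The bin of segments nearest to the Traj cluster, in which Trav17, Trav19 and Trav21-dv12 made up most of the sum, had the largest ratios between the high and the low groups. The position bins, and Trav16, Trav17, Trav19 and Trav21-dv12 as examples, were chosen after their values were seen, so they get a description and no claim beyond it. The 6 members 200 to 400 kb from Traj18 summed to 0.781, 7.95, 6.72 and 0.987 CPM in WT FT and to 0.462, 5.07, 6.05 and 0.325 in KO FT. That is 10.2-fold more in PBS males than females and 6.81-fold more in aGC females than males in WT FT, and 11-fold and 18.6-fold in KO FT. Their share of the summed members was 2.11 to 3.10% in the 4 high groups and 0.304 to 0.993% in the 4 low ones. Most of it was Trav17, Trav19 and Trav21-dv12. Those summed to 0.762, 7.95, 6.31 and 0.846 CPM in WT FT and 0.395, 4.92, 5.86 and 0.325 in KO FT. The rest, Trav18, Trav20 and Trav23, had group means of 0 to 0.298 CPM. In WT FT, Trav18 and Trav20 had counts in aGC females only. Trav23, the nearest, stood at 0.019 and 0.14 CPM in PBS females and aGC males there and at 0 elsewhere. It had 7 counts in 4 libraries, too few to read a direction.

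Farther away the ratios were smaller. For the 35 members at 400 to 800 kb the same 4 ratios were 3.42, 3.04, 1.77 and 2.32. At 800 to 1200 kb (39 members) they were 2.50, 2.62, 1.43 and 1.81, and at 1200 to 1600 kb (32 members) 2.49, 2.77, 1.42 and 1.71. The farthest bin, 1600 to 1800 kb, held 3 members with ratios of 2.62, 1.66, 1.00 and 1.40. Over members with more than 50% own stretches, the ratios at 400 to 800 kb (8 members) were 3.56, 3.90, 1.39 and 2.81. At 800 to 1200 kb (5 members) they were 2.06, 1.94, 1.44 and 2.16. At 1200 to 1600 kb (7 members) they were 2.74, 2.19, 1.16 and 0.969, and in the farthest bin (2 members) 2.66, 1.01, 0.301 and 1.44. In KO FT these far bins thus also held ratios in the reverse order, 0.969 and 0.301.

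**Figure D4:**
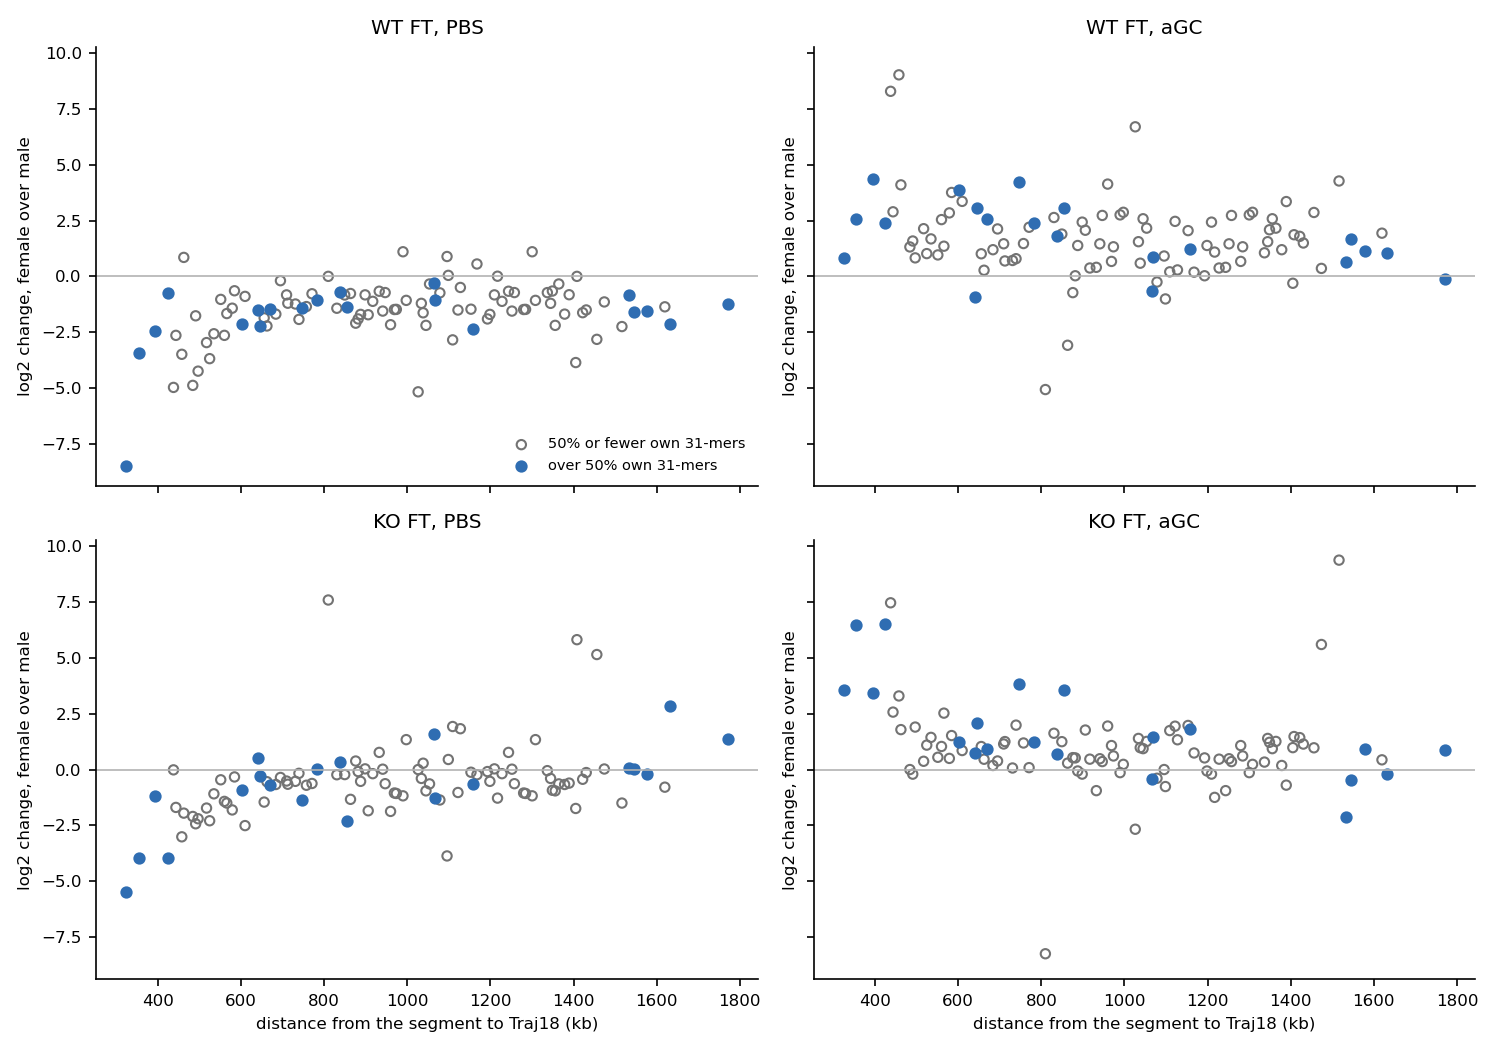
Log2 ratio of females over males against the distance of a segment from Traj18 in kb, for the 104 tested members in 4 panels (WT FT or KO FT, PBS or aGC); filled points are the 20 with over 50% own 31-base stretches. The points within 400 kb of Traj18 (Trav17, Trav19 and Trav21-dv12) lie below 0 after PBS and above 0 after aGC. Trav18, Trav20 and Trav23 also lie within 400 kb but were not tested and are not shown. The r between distance and log2 ratio is 0.32 and 0.41 after PBS and -0.21 and -0.21 after aGC in WT FT and KO FT.

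Across the 104 tested members the correlation of distance with the log2 ratio of females over males was r = 0.32 in WT FT and 0.41 in KO FT after PBS, and -0.21 in both after aGC. Over the 20 tested members with more than 50% own stretches it was 0.39, 0.69, -0.49 and -0.70. These points share libraries and are not independent, and copies of a segment lie at different distances, so the values are a description.

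Trav17, Trav19 and Trav21-dv12, 394, 355 and 324 kb from Traj18, consist of own stretches only. Trav17 (53806639 to 53807115) held 0.400, 0.632 and 0.406 CPM in WT FT PBS females, 3.00, 2.88 and 1.88 in PBS males, 3.58, 4.18 and 4.40 in aGC females and 0.0739, 0.133 and 0.367 in aGC males. In KO FT it held 0.210, 0.199 and 0.132, then 0.232, 0.507 and 0.445, then 2.01, 1.96 and 2.50, and then 0.268, 0.0736 and 0.233 CPM. It was thus high in the aGC females of both FTs and in PBS males of WT FT but not of KO FT.

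Trav21-dv12 (53875984 to 53876752) had 0 counts in all 3 WT FT PBS female libraries and 2.58, 2.38 and 2.77 CPM in the PBS males, at least 17.0-fold higher against a floor of 3 counts per library. With aGC it stood at 0.690, 0.781 and 0.664 CPM in WT FT females, at least 4.69-fold higher. Trav19 (53845234 to 53845827) had means of 0.282, 2.78, 1.54 and 0.256 CPM in WT FT and 0.185, 2.67, 2.42 and 0.0223 in KO FT. Trav16 (53743104 to 53743705), 457 kb away and with 32.8% own stretches, was at 0 in all 3 WT FT aGC male libraries, against 2.67, 2.44 and 2.50 CPM in PBS males and 3.45, 3.79 and 3.98 in aGC females. The PBS males were at least 11.9-fold and the aGC females at least 17.5-fold higher.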

How the data were processed

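RNA of sorted iNKT cells was sequenced as bulk libraries; the kit and Nextera XT do not mark strand, per the labels' protocols. The authors deposited 1 table of estimated counts in whole numbers for 24 libraries, made with kallisto (version not given in the sources used here) on GRCm38/mm10, per the submitters' processing notes. kallisto shares reads among near-identical transcripts by an estimate, which bears on copied Trav segments.

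Ensembl IDs were given symbols, positions and sequences from GENCODE M21. Groups came from the labels. edgeR 4.0.16 (R 4.3.3; limma 3.58.1) fitted 8 group means with TMM scaling and glmQLFit; filterByExpr (minimum count 10, minimum total 15) kept 15953 genes, with 16 residual degrees of freedom. Contrasts were two-sided, adjusted over all genes by Benjamini-Hochberg. Sums and shares are descriptions, with no test. Named segments are the 10 most abundant, up to 3 of the largest passing rises and falls per comparison with a group mean of at least 5 CPM, Trav1 and the dv members; Trav16, Trav17, Trav19, Trav21-dv12, Trav11n and the sums of near copies were added after their values were seen. Members and lists were chosen with earlier results of these data known. Alternatives were DESeq2 1.42.0, its size factors, library totals, no filter, summed copies, fewer groups, a replicate block, other denominators and leaving out each library. The test was checked on simulated data. Tables were handled with pandas 2.3.3 (Python 3.11.15). The summed naive T cell and iNKT lineage lists are not reported here.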

Additional observations from a re-analysis of the deposited data

Results flagged for a closer look

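The aGC response differed between females and males by a test of the difference itself, an interaction term in edgeR's quasi-likelihood fit. In WT FT mice 87 of 104 tested members passed it and in KO FT mice 59, where 47.7% and 46.7% of all genes did. Positive log2 values mean a more positive change with aGC in females than in males.

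Among the 10 most abundant members the WT FT differences were 2.721 for Trav7-4, 6.303 for Trav12n-3, 2.763 for the identical pair Trav14d-1 and Trav14n-1, 1.494 for the identical pair Trav3n-3 and Trav3d-3, 5.279 for Trav14-1, 4.251 for Trav3-3, 6.525 for Trav7d-2 and 2.873 for Trav13-1. In KO FT they were 2.16 for Trav7-4, 3.826 for Trav12n-3, 1.794 for Trav14d-1 and Trav14n-1, 0.651 for Trav3n-3 and Trav3d-3, 2.386 for Trav14-1, 2.53 for Trav3-3, 10.888 for Trav7d-2 and 2.49 for Trav13-1. Trav7d-2 had no count in any KO FT aGC male library, where its near copy Trav7-2 had 110 counts, so its KO FT value rests on how reads were divided between the copies and is no bound. The WT FT values of Trav7d-2 and Trav12n-3 carry the same limit: in WT FT aGC males 2 of the 3 libraries held 0 counts of each, with counts of Trav7-2 and Trav12d-3 in their place. As sums of CPM, Trav7-2 with Trav7d-2 was 5.23-fold higher after aGC in WT FT females and 5.52-fold lower in males, and Trav12d-3 with Trav12n-3 3.29-fold higher and 8.60-fold lower.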

How the results depend on the processing

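Single segments were checked in the alternative fits for 148 values, each of 1 segment in 1 comparison, and none reversed. These are only a part of all called values. The counts and summed levels kept their direction except as follows. For KO FT against WT FT in aGC males the summed level, near 0 at a log2 ratio of -0.014, changed sign with library totals, without the dv members, without Trav11n and on leaving out single libraries. The members there, 14 higher and 15 lower, became 17 and 12 with library totals, and the higher ones also outnumbered the lower with 4 other settings and on leaving out any 1 library of either compared group. Counts are of members passing edgeR's test and summed levels are log2 ratios. With near-identical copies added up (53 rows tested in place of 104, so fewer can pass), 41 (WT FT females), 45 (WT FT males) and 38 (KO FT males) passed for aGC, 23 and 17 for KO FT against WT FT in PBS males and aGC males, 44 and 43 for sex in WT FT after PBS and aGC, 29 for sex in KO FT after aGC, and 48 and 39 for the sex difference of the response in WT FT and KO FT. Without a filter on low counts 8 passed for KO FT against WT FT in PBS females and 33 for sex in KO FT after PBS; with the compared groups alone in the fit 11 passed for the first and 15 for KO FT against WT FT in aGC males. The cause was not tested. The other counts stayed within 1.5 times of the main value, as did all 14 with the DESeq2 Wald test, DESeq2 size factors or library totals.

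Scaled by library totals, the median of all genes moved from -0.05 to -0.19 in WT FT females and from -0.09 to -0.24 in WT FT males for aGC, and, for KO FT against WT FT after aGC, from -0.05 to 0.08 (females) and 0.01 to 0.14 (males); the summed levels became 1.05 and -1.98 for aGC, and -0.38 and 0.11 for KO FT against WT FT in aGC females and males. As shares of all Trav counts they were 1.58 (WT FT females), -1.05 (WT FT males), 1.24 (KO FT females) and -0.84 (KO FT males) for aGC; 0.014, -0.33, -0.33 and -0.12 for KO FT against WT FT in PBS females, PBS males, aGC females and aGC males; and -1.39, 1.25 and -1.04 for sex in WT FT PBS, WT FT aGC and KO FT PBS. Over members with more than 50% own stretches, an alternative chosen after seeing the data, they were 1.36 and 0.59 for aGC in females of WT FT and KO FT, 0.44, -0.68, -0.33 and -0.20 for KO FT against WT FT in the same order, and -1.68, -0.55 and 1.35 for sex in WT FT PBS, KO FT PBS and KO FT aGC.

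Leaving out 1 library at a time gave 62 to 74, 77 to 80, 28 to 34 and 60 to 69 members for aGC in WT FT females, WT FT males, KO FT females and KO FT males; 12 to 21, 36 to 46, 30 to 41 and 17 to 30 for KO FT against WT FT; 63 to 73, 63 to 74, 39 to 54 and 36 to 45 for sex in WT FT PBS, WT FT aGC, KO FT PBS and KO FT aGC; and 83 to 88 and 55 to 61 for the sex difference. The summed levels ran over 1.12 to 1.21, -1.85 to -1.80, 0.33 to 0.39 and -1.32 to -1.25 for aGC, 0.29 to 0.36, -0.57 to -0.53, -0.52 to -0.43 and -0.05 to 0.03 for KO FT against WT FT, and -1.54 to -1.49, 1.46 to 1.497, -0.68 to -0.60 and 0.96 to 1.03 for sex.

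Replicate numbers are shared by the groups, but the pairing check found no shared source: same-numbered libraries had deviations correlated at -0.055 to 0.091 over 84 pairs, none over 0.1, and 7 of 24 libraries were closest to their own number. With the replicate number as a block the counts were 70, 78, 31 and 66 for aGC, 18, 43, 38 and 29 for KO FT against WT FT, 70, 70, 47 and 43 for sex and 87 and 59 for the sex difference; Trav14d-1 and Trav14n-1 no longer passed between the sexes in KO FT after PBS. Depth limits single segments: the members' 1250 to 7730 counts per library are spread over 90 to 109 segments.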
